A study of Mus musculus with 15 samples.

Results

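Mouse chromosome 8 was represented by 764 genes on the 15 arrays of this study, of 1036 chromosome 8 genes that had a probe set of their own and of 13731 autosomal genes in all. A gene was counted when RefSeq (GRCm38.p6) places it on chromosome 8, when a probe set was paired with its symbol alone (the brightest such set stood for the gene), and when at least 5 of the 15 arrays had that set above the array's own middle value, the median over all probe sets. The chromosome was chosen because its genes measured low in carcinomas, so every difference between carcinomas and the other tissues is given here as a description. Genes past the limma threshold in those contrasts are counted, but no p is printed for them and nothing is read from the counts. Expression was measured as log2 RMA values, in which 1 unit is a doubling, in 5 normal choroid plexus samples and in 5 papillomas and 5 carcinomas of that tissue, from different mice per the series description, on a mixed C57Bl/6 and 129 background. Per the labels, normal tissue came from mice of genotype Myc/Myc with p53fl/fl and no Cre, papillomas from Atoh1-Cre mice with Myc/Myc, and carcinomas from Atoh1-Cre mice with both Myc/Myc and p53fl/fl. Papillomas therefore differed from normal tissue both in carrying Cre and in lacking the floxed p53 alleles, and Cre was present in cells in which Atoh1 regulatory sequence is or was active. The sources used here give no ages.

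The choroid plexus is a frond-like tissue in the brain ventricles whose ciliated epithelium secretes cerebrospinal fluid. Its benign tumour is called papilloma and its malignant tumour carcinoma, and carcinomas are known for gains and losses of whole chromosomes. When a cell loses a copy of a chromosome, transcripts of the genes along it tend to drop by a small and similar amount, whereas regulation of a pathway moves its genes wherever they lie. Mouse chromosomes carry their centromere at the end from which positions are numbered, so gene order runs from the centromere to the far telomere. DNA copy number was not analysed here, and its part in any difference below was not tested.

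The promoter sequences below belong to chromosome 8 genes described further on: Drc7, Dynlrb2 and Hydin, cilium genes among those furthest below normal tissue, Cdt1 and Nob1, growth genes above it, and Prkaca. They were taken from RefSeq (GRCm38.p6) and cover the 250 bases before the annotated start, 5′ to 3′ on the gene's strand. Capitals mark GTTGCC or its reverse complement GGCAAC, an arm of the X-box to which RFX factors of ciliated cells bind, or CACGTG, the E-box to which Myc binds with Max and which is its own reverse complement. Prkaca was chosen by rule as a named growth gene with CACGTG, and the other genes after their values were seen.
Drc7 (chr8:95054853-95055102, + strand): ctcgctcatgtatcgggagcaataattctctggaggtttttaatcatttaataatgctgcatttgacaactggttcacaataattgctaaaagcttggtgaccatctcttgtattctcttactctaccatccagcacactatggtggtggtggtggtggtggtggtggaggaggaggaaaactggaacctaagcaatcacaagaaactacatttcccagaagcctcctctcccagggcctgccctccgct
Dynlrb2 (chr8:116504765-116505014, + strand): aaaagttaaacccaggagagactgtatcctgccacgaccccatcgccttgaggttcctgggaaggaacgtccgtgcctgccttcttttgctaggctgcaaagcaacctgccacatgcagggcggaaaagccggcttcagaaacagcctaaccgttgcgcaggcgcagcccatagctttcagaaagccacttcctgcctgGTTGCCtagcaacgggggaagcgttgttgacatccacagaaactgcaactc
Hydin (chr8:110266727-110266976, + strand): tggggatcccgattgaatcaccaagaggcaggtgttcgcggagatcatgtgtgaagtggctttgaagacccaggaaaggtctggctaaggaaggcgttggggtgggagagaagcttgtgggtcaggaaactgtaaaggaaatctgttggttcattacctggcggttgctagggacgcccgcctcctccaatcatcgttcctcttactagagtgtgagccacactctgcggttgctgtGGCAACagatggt
Cdt1 (chr8:122567765-122568014, + strand): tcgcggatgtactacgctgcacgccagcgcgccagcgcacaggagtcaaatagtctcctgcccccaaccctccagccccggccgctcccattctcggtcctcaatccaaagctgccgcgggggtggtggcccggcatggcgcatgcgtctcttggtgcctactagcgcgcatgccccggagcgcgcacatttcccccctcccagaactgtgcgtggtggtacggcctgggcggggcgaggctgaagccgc
Nob1 (chr8:107425039-107425288, - strand): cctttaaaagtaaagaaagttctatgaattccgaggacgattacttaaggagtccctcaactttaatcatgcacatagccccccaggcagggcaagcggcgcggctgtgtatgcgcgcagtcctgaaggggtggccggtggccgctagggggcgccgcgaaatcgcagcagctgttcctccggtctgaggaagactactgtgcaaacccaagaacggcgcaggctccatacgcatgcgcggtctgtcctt
Prkaca (chr8:83972728-83972977, + strand): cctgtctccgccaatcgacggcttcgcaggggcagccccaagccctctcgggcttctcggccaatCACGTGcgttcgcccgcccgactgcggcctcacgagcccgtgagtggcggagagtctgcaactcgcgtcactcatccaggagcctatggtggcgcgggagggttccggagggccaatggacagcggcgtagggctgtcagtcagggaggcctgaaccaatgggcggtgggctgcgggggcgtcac

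GTTGCC, on either strand, lay 51 bases before the start in Dynlrb2 and 13 bases before it in Hydin, and these letters were not in the Drc7 window. CACGTG lay 185 bases before the start in the Prkaca window shown, and GTTGCC lay 131 bases before another annotated start of Prkaca, whose window is not shown. Promoter windows of 300 bases (250 before the start and 50 after it) matched 526 of the 764 genes, some with more than 1 start, which gave 641 windows. GTTGCC was in 11.9% of these windows, in 10.6% of those of the other autosomal genes above the filter and in 10.4% of all 32851 windows. It was in 6 of 19 windows of the cilium genes described below (31.6%). CACGTG was in 8.58% of the chromosome 8 windows, 8.02% of those of the other autosomal genes and 6.02% of all windows, in 4 of 36 windows of the cell cycle genes and in 0 of 23 of the ribosome and growth genes. The letters are a description of the windows and not binding sites, and the motifs do not overlap each other.

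Array medians were 6.79 to 6.90, so the arrays were on a common scale, and arrays have no read depth. Of the 764 genes, 719 were protein-coding, 26 were long non-coding RNAs, 48 had predicted or clone names, and 658 were above that median in all 15 arrays. The filter left out 272 genes of the chromosome, and 3 genes passed through normal arrays alone. Just inside it, at exactly 5 arrays, were 14 genes such as Sult5a1 (mean log2 value 6.97) and Mlkl (6.83), and just outside, at 4 arrays, were 7 such as Xkr5 (6.78) and Pabpn1l (6.77). Choroid plexus epithelial markers (9 of 12 measured, among them Otx2, Sostdc1 and Kcne2) had a mean log2 value of 13.17 to 13.23 in normal arrays, 12.58 to 12.91 in papillomas and 12.50 to 12.87 in carcinomas, so the labelled tissue was present in every array. Neuronal markers (7 of 7 measured) stood at 9.94 in papilloma 2 and 8.96 in papilloma 4, against 7.24 to 7.62 in the other papillomas, 8.60 to 9.19 in normal arrays and 7.37 to 8.06 in carcinomas. Pituitary markers (3 of 3) were at 7.90 to 9.64 in normal arrays and at 6.10 to 7.37 in tumours. Normal arrays 2 to 5 held both Xist (10.69 to 12.48) and Y-linked transcripts (mean 7.72 to 9.74), whereas each tumour array held 1 of them. The labels do not say whether a normal sample was tissue of 1 mouse or of several, and with pooled tissue the spread among normal arrays would not be that among mice. In bulk tissue, fewer cells of a type and less RNA per cell cannot be told apart.

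Genes of chromosome 8 were low as a body in some carcinomas and not in others. The median difference of the 764 genes from the normal mean, centred on the median of all autosomal genes in the same array, was -0.24, -0.06, -0.11, -0.43 and 0.02 (log2) in carcinomas 1 to 5. Carcinoma 4 was lowest, carcinoma 1 next, and carcinoma 5 stood near the normal arrays. As ratios to normal tissue these medians were 0.85, 0.956, 0.929, 0.742 and 1.01. The 5 papillomas lay at 0.03, 0.01, 0.02, 0.00 and 0.04, and the normal arrays between -0.01 and 0.01, so no papilloma was as low as carcinomas 1 to 4. The mean was -0.16 over the 5 carcinomas and 0.02 over the 5 papillomas. It was -0.10 without carcinoma 4 and -0.21 without carcinoma 5, -0.09 with no filter on dim genes and -0.25 over the brighter members.

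Among the 19 autosomes chromosome 8 had the lowest median in carcinomas 1 and 4. Counted from the lowest, it took place 2 in carcinoma 3, place 5 in carcinoma 2 and place 15 in carcinoma 5. Other autosomes were moved in the same arrays. Chromosome 12 had medians of -0.21, -0.28, -0.35, -0.01 and -0.09 in carcinomas 1 to 5, and chromosome 19 had -0.20, -0.23, -0.03, 0.06 and -0.41. Carcinoma 4, with the lowest chromosome 8, was thus near 0 on both, but its chromosome 13 was at -0.29. Carcinoma 5, with chromosome 8 near 0, had the lowest chromosome 19. Over the 5 carcinomas the mean was -0.19 for chromosome 12 and -0.16 for chromosomes 8 and 19. In papillomas the other 18 autosomes stayed between -0.05 and 0.06.

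**Figure D1:**
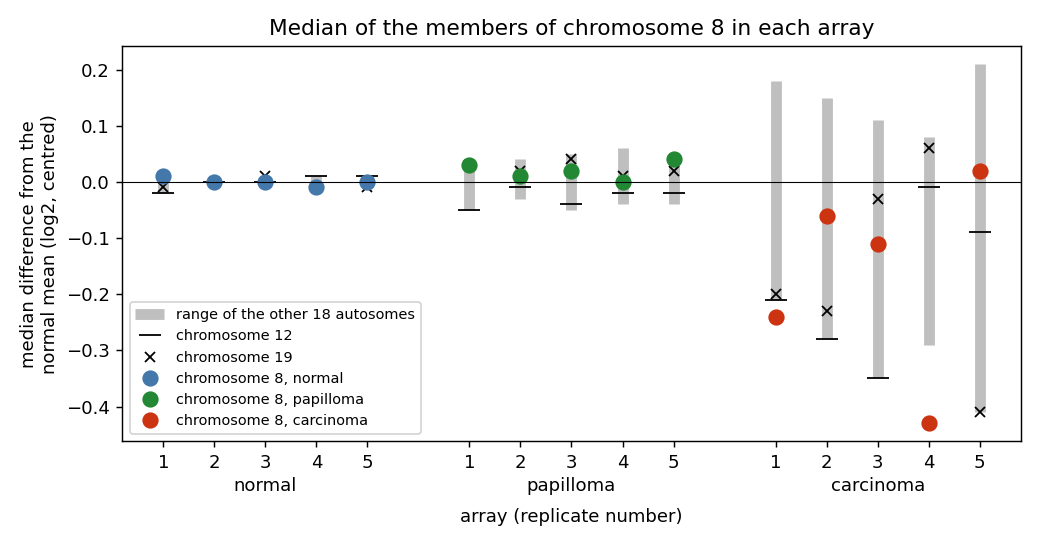
Median log2 difference of the chromosome 8 genes from the normal mean, centred on all autosomal genes, in each of the 15 arrays (circles, replicates 1 to 5 of each group on the horizontal axis). Grey bars span the other 18 autosomes, dashes are chromosome 12 and crosses chromosome 19. Normal and papilloma arrays lie within 0.04 of 0, and carcinomas run from -0.43 to 0.02.

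The shift could be seen gene by gene. In carcinoma 4, 68.1% of the 764 genes were below all 5 normal arrays, against 36.7% of the other autosomal genes, and 15.1% were above all of them, against 40.6%. In carcinoma 1 the shares were 61.1% below (38.2% of other genes) and 18.7% above (39.6%). Carcinoma 3 had 49.7% below (39% of other genes) and carcinoma 2 had 47.4% (40.2%), while carcinoma 5 had 38.1% (39.1%). So the excess of low genes was large in carcinomas 1 and 4, smaller in 2 and 3, and absent in 5. Of the 5 carcinomas, carcinoma 4 held the lowest value for 57.5% of the chromosome 8 genes and for 23.8% of other autosomal genes. Carcinoma 5 held the highest for 46.1% of chromosome 8 genes and for 20.5% of the others. The median SD over the 5 carcinomas was 0.28 for chromosome 8 genes and 0.20 for other autosomal genes, whereas in normal tissue both were 0.10 and in papilloma both were 0.13. The genes of the chromosome thus varied more among carcinomas than other genes did, and no more than others among normal tissues or papillomas. The shares and the SD restate the array shifts for which the chromosome was chosen, and are no further support for them.

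The genes were set in order along the chromosome and cut into 30 windows of 25 consecutive genes, with 39 in the last. Against the normal mean, 29, 22, 23, 30 and 18 of the 30 window medians were below 0 in carcinomas 1 to 5, and 12 to 15 were in each papilloma. In carcinoma 4 every window was low, from -0.76 to -0.09. Genes that change in both tumour types raise or lower a window in every tumour, so the papilloma mean was also used as the reference. That reference was added after the values had been seen. Against it, 30, 29, 24, 30 and 16 windows were below 0, from -0.45 to -0.07 in carcinoma 1 and from -0.84 to -0.19 in carcinoma 4, and the medians of all 764 genes were -0.33, -0.12, -0.14, -0.50 and -0.01.

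Carcinoma 3 differed along its length. Against the papilloma mean, its windows 1 to 17 (425 genes, Insr to Vps35) lay between -0.10 and 0.02, with a median over genes of -0.04, and its windows 18 to 30 (339 genes, Orc6 to 2610044O15Rik8) between -0.46 and -0.14, with a median of -0.33. The far stretch was therefore as low as carcinoma 1 and the near stretch close to the papillomas. This division was chosen after the values had been seen, and it is given without a test. Over the same stretches carcinoma 1 had medians of -0.34 and -0.31, carcinoma 2 -0.12 and -0.11, carcinoma 4 -0.51 and -0.49, and carcinoma 5 -0.02 and -0.01, so in the other 4 carcinomas the medians of the stretches were close to each other. Smaller pieces varied more, as the windows show, and the third of 4 equal stretches had -0.39 in carcinoma 4 against -0.52, -0.53 and -0.52 in the others. Against the normal mean the step in carcinoma 3 ran from -0.02 to -0.23. In these equal stretches of 191 genes, the medians of carcinoma 3 against the papilloma mean were 0.00, -0.06, -0.19 and -0.38 from the centromere outward.

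**Figure D2:**
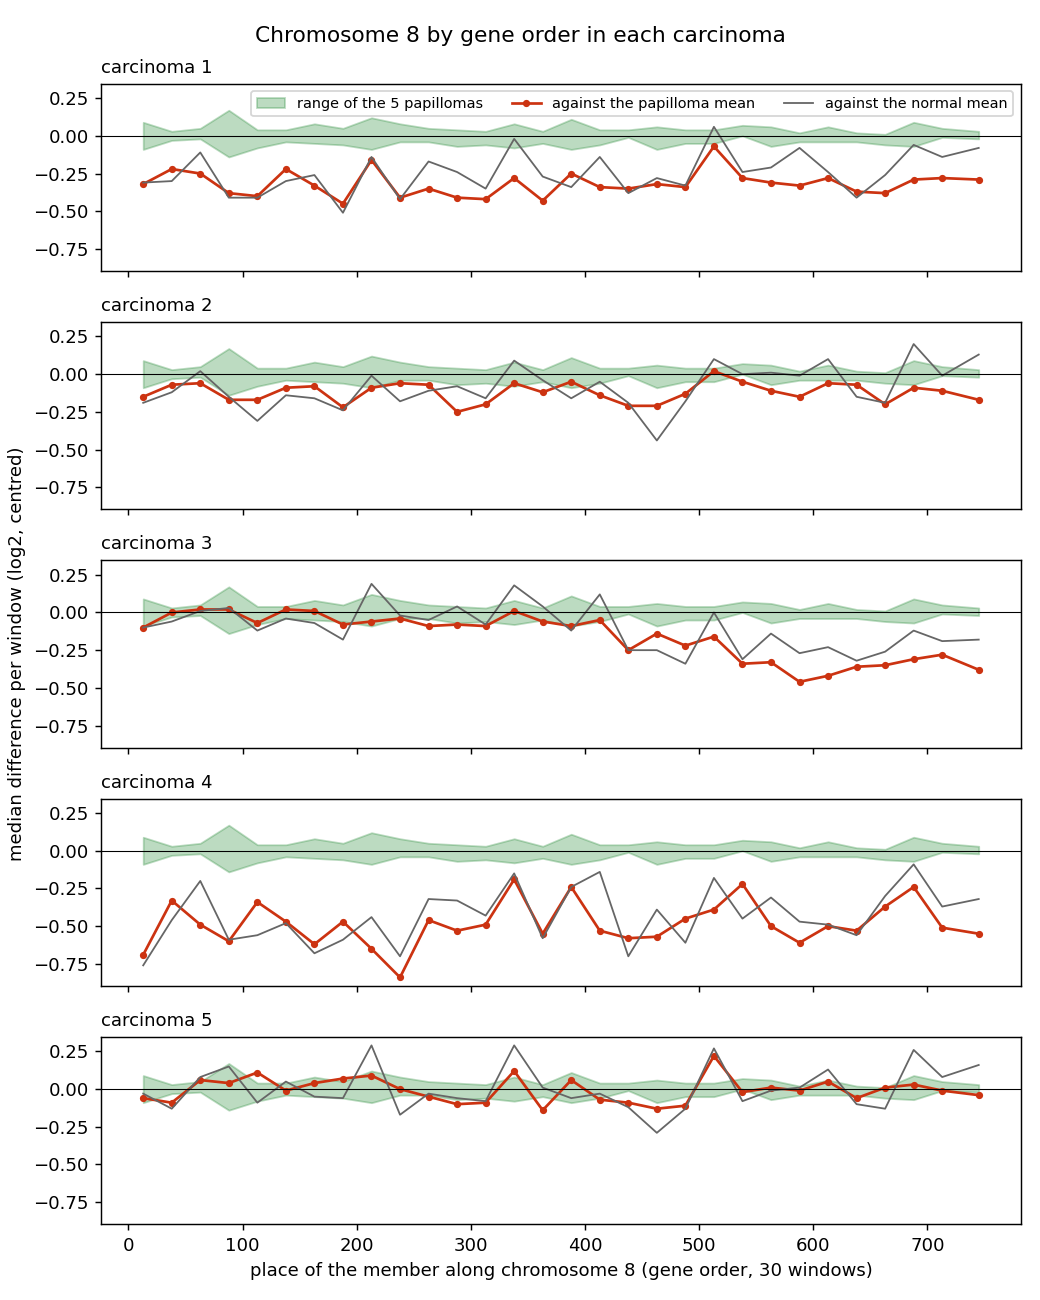
Median log2 difference per window of 25 consecutive genes along chromosome 8 in each carcinoma, against the papilloma mean (red) and the normal mean (grey), with the range of the 5 papillomas against their own mean in green. The horizontal axis is the place of a gene in chromosome order. Carcinomas 1 and 4 are below 0 along the whole chromosome against the papilloma mean, carcinoma 3 over its far stretch, and carcinoma 5 stays near 0.

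The shift was larger among brighter genes. With the 764 genes in 4 equal bins by mean log2 value, dimmest first, the medians were -0.05, -0.39, -0.60 and -0.60 in carcinoma 4 and -0.09, -0.18, -0.33 and -0.40 in carcinoma 1. Carcinoma 3 had -0.08, -0.03, -0.13 and -0.18 and carcinoma 2 had 0.00, -0.01, -0.20 and -0.13, while carcinoma 5 stayed between -0.04 and 0.07. The dimmest bin was thus close to normal in every carcinoma and the shift stood in the brighter genes. Over other autosomal genes the same bins lay between -0.10 and 0.09. The RMA summary reports a smaller difference for a dim probe set than for a bright one, and its part here was not tested.

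**Figure D3:**
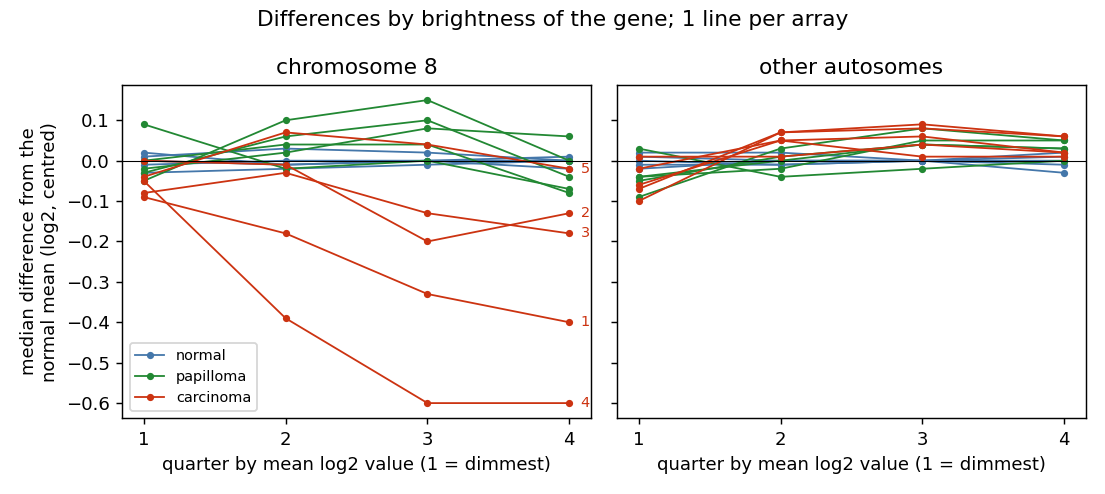
Median log2 difference from the normal mean by bin of gene brightness (quartiles, 1 is dimmest), for chromosome 8 on the left and the other autosomes on the right, with 1 line per array and the carcinomas numbered. On chromosome 8 carcinomas 1 and 4 descend to -0.40 and -0.60 in the brightest bin, and on the other autosomes all arrays stay between -0.10 and 0.09.

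Genes past a threshold were also counted. A gene was called changed where the limma test gave an adjusted p under 0.05 (Benjamini-Hochberg over all 22180 genes). Between carcinoma and normal tissue, 270 of the 764 genes (35.3%) were called lower and 107 (14%) higher, against a background of 25.7% lower and 27.3% higher over all autosomal genes above the filter. The 5 carcinoma arrays lay wholly below the 5 normal arrays for 214 genes (28%, background 21.2%) and wholly above for 69 (9.03%, background 22%). The median difference was -0.16 over the 764 genes and -0.01 over all autosomal genes. This contrast chose the chromosome, so nothing is read from its counts. With the median shift of each autosome removed from each array, an alternative added after the values had been seen, 217 genes were lower and 200 higher.

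The papilloma arrays took no part in choosing the chromosome. Against normal tissue, 144 genes (18.8%) fell and 178 (23.3%) rose in papilloma by the limma test, near the background of 22.3% and 24.7%. Arrays of the groups did not overlap for 165 lower genes (21.6%, background 22.5%) and 194 higher ones (25.4%, background 24.4%). The median difference was 0.03 over the 764 genes and 0.01 over all autosomal genes. With only papilloma and normal arrays in the fit, 194 genes were lower and 225 higher, and no background was counted for that fit. Non-overlap uses no estimate of spread. By that rule chromosome 8 in papilloma had about the share of changed genes that all autosomal genes had, in both directions.

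Between carcinoma and papilloma, which shares the carcinoma arrays that chose the chromosome, 180 genes (23.6%) were lower in carcinoma and 22 (2.88%) higher, with a background of 7.54% and 9.21%. Arrays did not overlap for 111 lower genes (14.5%, background 4.79%) and 12 higher ones (1.57%, background 6.6%). The median difference was -0.21, and 80.1% of the genes were below 0, against 51.5% of all autosomal genes. With each autosome's shift removed the split was 92 lower and 51 higher. The counts moved with the arrays used: 105 genes were called in all, in place of 202, with only these groups in the fit, and 130 without papillomas 2 and 4, which carried the neuronal markers.

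Lists of chromosome 8 genes by function showed how differently the members behaved around that shift. The lists were put together with earlier results of these data known, and their counts are descriptions. Each list's counts below use the limma threshold over all genes. The backgrounds above are over all autosomal genes. Since the lists were made with results known, nothing is read from their papilloma or carcinoma counts.

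Cilium genes had the largest differences on the chromosome. Drc7, a subunit of the dynein regulatory complex of motile cilia, measured 12.51, 12.46, 12.50, 12.58 and 12.49 in normal arrays 1 to 5, 7.37, 7.20, 7.69, 7.43 and 7.62 in the papillomas, and 8.63, 6.86, 8.88, 7.87 and 8.61 in the carcinomas. Every tumour was far below every normal array. It fell by 5.05 (SE 0.28, 33.1-fold) in papilloma (limma adjusted p = 1.37e-09), and carcinoma was 20.3-fold below normal. Dynlrb2, a light chain of cytoplasmic dynein linked to cilia, measured 10.04 to 10.63 in normal tissue, 6.57 to 6.83 in papilloma and 6.56 to 7.32 in carcinoma. Its papilloma difference was -3.65 (SE 0.14). The tumours were near the array median, and the tumour types overlapped.

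Hydin, a protein of the central apparatus of motile cilia, measured 9.16 to 9.69 in normal tissue, 6.68 to 6.79 in papilloma and 6.38 to 6.91 in carcinoma. Its papilloma difference was -2.57 (SE 0.11). Its carcinoma difference of -2.70 was -1.49 with the mean of its probe sets. Ccdc113, a component of ciliary satellites and axonemes, was at 9.49 ± 0.21 in normal tissue and 6.47 ± 0.14 in papilloma (SD, n = 5), a difference of -3.02 (SE 0.13). Nek5, a kinase of the NIMA family that is in none of the lists, fell by 3.87 (SE 0.16, adjusted p = 7.56e-11) in papilloma. Tsnaxip1, at 8.20 to 8.81 in normal tissue and 5.68 to 6.15 in tumours, was above the array median in the 5 normal arrays alone, so it passed the filter through them and had to differ. Dynlrb2, Hydin, Ccdc113 and Tsnaxip1 were near or under the array median in tumours, so the size of their differences from normal tissue is less certain. Dynlrb2, Hydin and Ccdc113 were above the median in 7, 6 and 8 arrays, the normal arrays among them. They too passed the filter only with the normal arrays, so their differences are given with no test. These genes were thus low in both tumour types, with carcinoma minus papilloma between -0.12 (Hydin, 0.06 with each autosome's shift removed) and 0.75 (Nek5). Nek5 was at 7.70 to 8.46 in carcinoma and 6.94 to 7.58 in papilloma, with no overlap.

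The cilium list as a whole had 17 members, of 22 of its genes on the chromosome. Of these, 13 were lower and 0 higher in carcinoma against normal (median -1.01), 8 fell and 1 rose in papilloma (median -0.43), and 7 were lower and 0 higher in carcinoma against papilloma (median -0.32). The genes counted below normal in both tumour types include Dynlrb2, Hydin and Ccdc113, which passed the filter only with the normal arrays. Nothing is therefore read from these counts. The member that rose was Wdr17, a gene placed only loosely in this list. It was at 9.20 to 9.36 in normal tissue, 9.84 to 10.46 in papilloma and 8.45 to 9.67 in carcinoma. Its rise in papilloma was 0.96 (SE 0.18, limma adjusted p = 0.000473). Markers of multiciliated cells, none of them on chromosome 8 (7 of 8 measured, mean log2 value), were also low in both tumour types. They were at 9.93 to 10.11 in normal tissue, 6.80 to 7.00 in papilloma and 7.02 to 8.01 in carcinoma. Between the tumour types their mean went against the list, with carcinoma above papilloma. Single markers varied: Cfap52 was at 8.03 to 9.98 in carcinoma and 7.37 to 7.85 in papilloma. Ak7 was at 6.44 to 7.23 and 6.48 to 6.85 in the same order, and Dnah5 and Tmem212 also overlapped. Foxj1, another of the markers, was at 11.30 to 11.54 in normal tissue and 7.75 to 7.99 in papilloma. In carcinomas 1 to 5 it was at 9.60, 7.96, 10.81, 10.42 and 10.64. The part of the markers in the list's values was not tested.

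Many cell cycle and replication genes were above normal tissue in both tumour types. Cdt1, which loads the replicative helicase onto origins, measured 7.37, 8.02, 8.04, 8.19 and 7.63 in normal arrays, 10.15, 9.28, 9.51, 9.93 and 9.69 in papillomas and 10.07, 10.56, 9.93, 10.25 and 10.47 in carcinomas. Every tumour was above every normal array, carcinoma 4 included. It rose by 1.86 (SE 0.18, adjusted p = 8.38e-07) in papilloma and was 2.41 above normal in carcinoma. Mcm5, a subunit of that helicase, measured 7.69 to 8.14, 9.08 to 9.59 and 9.59 to 10.85 in normal tissue, papilloma and carcinoma, and rose by 1.35 (SE 0.18, adjusted p = 2.29e-05) in papilloma. Asf1b, a histone chaperone of replicating chromatin, was at 7.35 to 7.70, 8.22 to 8.66 and 9.04 to 10.30, so that the 3 groups did not overlap. It rose by 0.95 (SE 0.18, adjusted p = 0.000534) in papilloma, and carcinoma was 1.13 above papilloma.

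Cenpn, a centromere protein, rose by 1.49 (SE 0.16, adjusted p = 1.95e-06) in papilloma and was 2.10 above normal in carcinoma. Ckap2, a protein of the mitotic spindle that is in none of the lists, was 1.89 above normal (SE 0.18) in papilloma and 2.63 above it in carcinoma. Its normal values, 5.96 to 6.72, were under the array medians, so the size of these differences is less certain. It passed the filter through the 10 tumour arrays alone, so these values are given with no test. Dctd, also in none of the lists, deaminates dCMP on the way to thymidine nucleotides. It measured 6.14 to 7.60 in normal tissue, 9.01 to 9.54 in papilloma and 8.61 to 9.53 in carcinoma. In papilloma it was 2.44 above normal (SE 0.24). Some of its normal values were under the array medians, so the size of this difference is less certain. It was above the median in 13 arrays and passed the filter only with the tumours, so these values are given with no test. Of the 32 members of the cell cycle list, 16 rose and 1 fell in papilloma (median 0.27), and 13 were higher and 6 lower in carcinoma against normal (median 0.17). The list's medians in carcinomas 1 to 5 were 0.04, 0.47, 0.26, -0.22 and 0.34, with the lowest values again in carcinomas 4 and 1. Proliferation markers, none of them on chromosome 8 (6 of 6 measured), were at 7.01 to 7.17 in normal tissue, 8.63 to 9.18 in papilloma and 10.70, 11.17, 10.34, 10.91 and 9.90 in carcinomas 1 to 5, and their part in these values was not tested.

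Prkaca, the catalytic subunit of protein kinase A, went the other way within this list. Its values were 11.81 to 11.99 in normal tissue, 11.59 to 11.78 in papilloma, and 11.04, 11.04, 11.31, 10.83 and 11.34 in carcinomas 1 to 5. All carcinomas were below all papillomas, and all papillomas below all normal arrays. The papilloma difference of -0.19 (SE 0.09) did not pass the test (adjusted p = 0.125), and the carcinoma difference from normal was -0.77, or -0.61 with each autosome's shift removed.

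Most of the ribosome, translation and growth genes rose in papilloma. Nob1, the endonuclease that finishes the small ribosomal RNA, measured 9.47, 9.46, 9.36, 9.31 and 9.44 in normal arrays, 11.03, 11.03, 11.25, 11.31 and 11.30 in papillomas, and 10.59, 10.93, 10.68, 10.41 and 11.11 in carcinomas. Both tumour types lay above normal tissue, and 4 of 5 carcinomas lay below every papilloma. It rose by 1.78 (SE 0.11, adjusted p = 7.22e-09) in papilloma and carcinoma was 0.44 below papilloma. Slc7a6, an amino acid transporter, rose by 1.47 (SE 0.12, adjusted p = 1.42e-07), Aprt, which salvages adenine, by 1.34 (SE 0.12, adjusted p = 3.54e-07), and Eif4ebp1, a repressor of cap-dependent translation, by 1.21 (SE 0.25, adjusted p = 0.00101). Naf1, an assembly factor of H/ACA ribonucleoproteins, was not above normal in either tumour, at 9.71 to 10.15, 9.59 to 9.84 and 9.04 to 9.51 in normal tissue, papilloma and carcinoma.

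Of the list's 29 members, 24 rose and 0 fell in papilloma (median 0.57), where the background is 24.7% higher. In carcinoma against normal 14 were higher and 3 lower (median 0.33), and in carcinoma against papilloma 0 were higher and 8 lower, with 28 of 29 differences below 0 (median -0.27). The list's medians were 0.19, 0.53, 0.45, -0.09 and 0.58 in carcinomas 1 to 5 and 0.47 to 0.62 in papillomas. Carcinomas 2, 3 and 5 were thus near the papillomas, carcinoma 1 below them, and carcinoma 4 below normal tissue.

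Genes of mitochondrial energy metabolism measured lower in carcinoma than in papilloma, as did 80.1% of the 764 genes. Of 22 members, 15 were called lower and 0 higher, where 23.6% of the 764 genes were called lower. All 22 differences were below 0 (median -0.40, against -0.21 for the 764 genes). The shift was larger among brighter genes and the list was not matched for brightness, so nothing is read from this contrast. In papilloma against normal 9 rose and 3 fell (median 0.17), and in carcinoma against normal 8 were lower and 0 higher (median -0.17). Cyb5b, a cytochrome b5 of the outer mitochondrial membrane, measured 12.02 to 12.14 in normal tissue and 12.65 to 12.75 in papilloma, and 12.14, 12.55, 12.30, 11.64 and 12.17 in carcinomas 1 to 5. It rose by 0.61 (SE 0.12, adjusted p = 0.000809) in papilloma, and every carcinoma was below every papilloma. Spg7, the paraplegin subunit of a mitochondrial protease, measured 10.05 to 10.17, then 9.73 to 10.18, then 9.30, 9.39, 9.49, 9.07 and 9.99 in carcinomas 1 to 5. Its carcinomas were below normal tissue with carcinoma 5 nearest to it, and papilloma differed by -0.10 (SE 0.13, adjusted p = 0.642).

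Ndufb7, a subunit of respiratory complex I, measured 10.97 to 11.06, 10.61 to 10.88 and 10.06 to 10.54 in normal tissue, papilloma and carcinoma with no overlap among the 3 groups. It fell by 0.31 (SE 0.09, adjusted p = 0.0138) in papilloma, a call that was lost without papillomas 2 and 4 (adjusted p = 0.0926). Gfod2, an oxidoreductase-domain protein not known to act in mitochondria, fell by 0.45 (SE 0.08, adjusted p = 0.000214).

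DNA repair and telomere genes moved little in papilloma. Of 12 members, 2 rose and 1 fell in papilloma (median 0.06), and 1 was higher and 2 lower in carcinoma against normal (median -0.15). The list's medians were -0.27, 0.04, 0.00, -0.46 and 0.06 in carcinomas 1 to 5, with the lowest in carcinomas 4 and 1, as for the chromosome. Against papilloma, 10 of the 12 differences of carcinoma were below 0 (median -0.25). Terf2ip, the telomere protein Rap1, measured 10.30 to 10.41 in normal tissue and 10.33 to 10.56 in papilloma, and 9.88, 9.89, 9.93, 9.65 and 10.22 in carcinomas. The carcinomas were in the order of the whole chromosome at its ends, with carcinoma 4 lowest and carcinoma 5 highest, and papilloma differed by 0.05 (SE 0.09, adjusted p = 0.724). Terf2, which protects chromosome ends, rose by 0.48 (SE 0.10, adjusted p = 0.00173) in papilloma. Neil3, a DNA glycosylase, was 0.93 above normal in carcinoma, and in papilloma it differed by 0.33 (SE 0.13). Its normal values, 6.25 to 6.62, were under the array medians, so the size of these differences is less certain. It passed the filter at 6 arrays, all of them tumours, so these values are given with no test. Atmin, a cofactor of ATM signalling, was at 10.74 to 10.82 in normal tissue, 10.37 to 10.58 in papilloma and 9.92, 9.92, 9.98, 9.88 and 10.47 in carcinomas 1 to 5. Its papilloma difference of -0.28 (adjusted p = 0.0355) lost its call without any 1 normal array or without papilloma 2, 3 or 4 (adjusted p 0.0534 to 0.086).

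**Figure D4:**
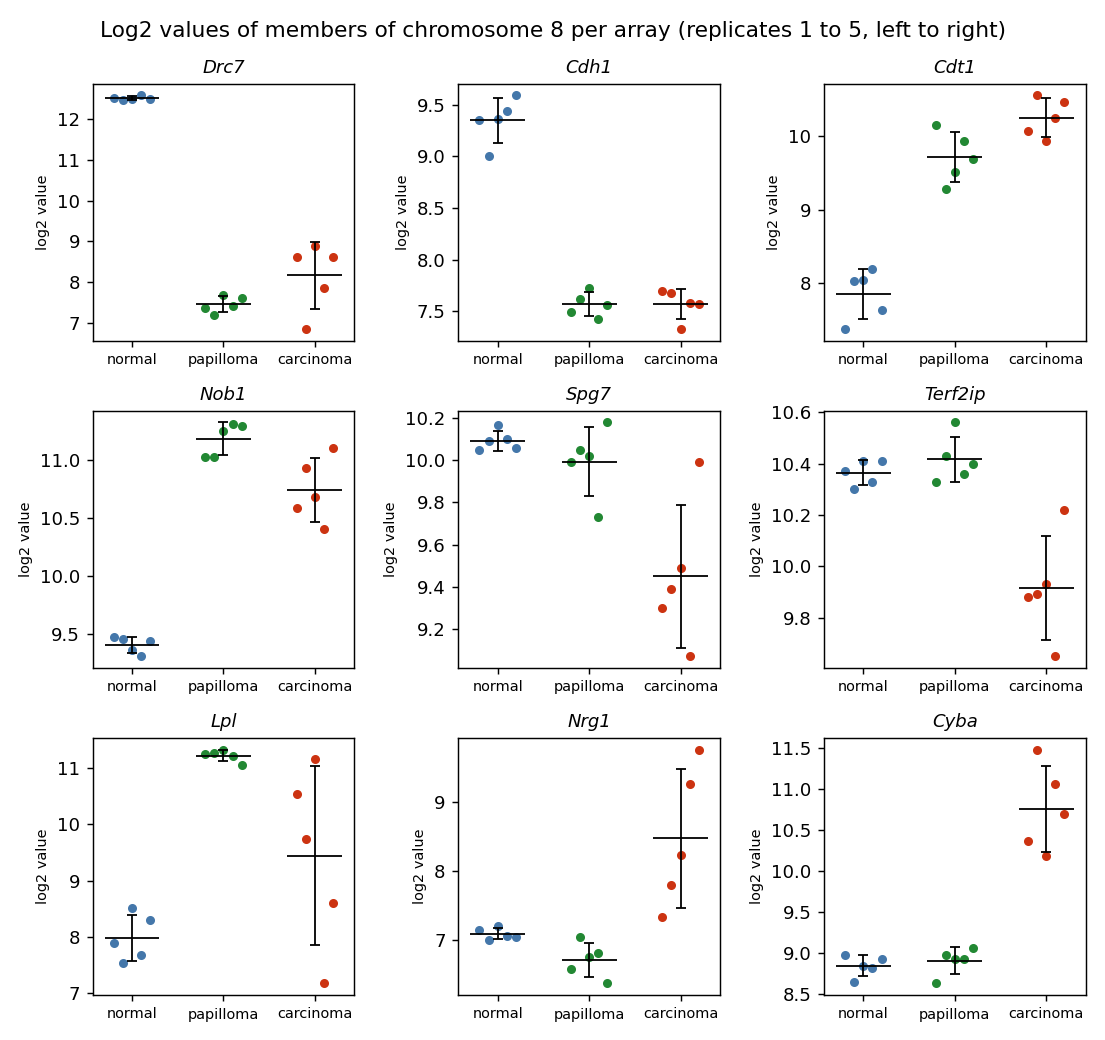
Log2 values of 9 chromosome 8 genes in each array, with the mean and SD of the 5 arrays per group; points run from replicate 1 to 5 and each panel has its own vertical scale. Drc7 and Cdh1 are low in both tumour types, Cdt1 and Nob1 high in both, Spg7 and Terf2ip low in carcinoma with carcinoma 5 highest, Lpl high in papilloma, and Nrg1 and Cyba high in carcinoma.

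Several cadherin genes lie on chromosome 8, and they took different courses. Cdh1, E-cadherin of epithelial junctions, measured 9.35, 9.00, 9.36, 9.44 and 9.59 in normal arrays, 7.49, 7.62, 7.73, 7.43 and 7.56 in papillomas and 7.70, 7.68, 7.33, 7.58 and 7.57 in carcinomas. Tumours of both types were at one level, below all normal arrays. It fell by 1.78 (SE 0.10, adjusted p = 2.85e-09) in papilloma, and its carcinoma difference of -1.77 was -1.12 with the mean of its probe sets. Cdh11, a cadherin of mesenchymal cells, was at 9.24 to 9.57 in normal tissue, 7.79, 9.52, 8.11, 8.36 and 8.81 in papillomas and 9.75, 10.25, 10.26, 10.89 and 11.15 in carcinomas. All carcinomas were above all other arrays, 1.94 above papilloma on average, and papilloma 2, the array with most neuronal marker signal, was the highest papilloma. The papilloma difference of -0.87 (adjusted p = 0.0289) lost its call without normal array 1, 3 or 4 or papilloma 1, 3 or 4 (adjusted p 0.0515 to 0.0825).

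Tenm3, a teneurin of cell contacts, varied most among carcinomas, at 9.36, 6.61, 8.60, 9.73 and 10.89, and was at 10.24 to 10.61 in normal tissue and 10.32 to 11.01 in papilloma. Palld, an actin-bundling protein, was 1.34 above normal in carcinoma and 0.84 above it in papilloma (SE 0.34, adjusted p = 0.0668), where it ran from 7.40 to 9.59. Of the 18 members of the list, 5 rose and 4 fell in papilloma (median 0.00), and 6 were higher and 6 lower in carcinoma against normal (median -0.05).

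Genes of matrix, vessels and growth factors were as mixed, with 6 of 23 risen and 5 fallen in papilloma (median -0.14) and 6 higher and 7 lower in carcinoma against normal (median -0.19). Lpl, lipoprotein lipase, measured 7.90, 7.53, 8.51, 7.68 and 8.30 in normal arrays, 11.24, 11.26, 11.32, 11.20 and 11.05 in papillomas, and 10.54, 9.73, 11.16, 7.18 and 8.60 in carcinomas. The papillomas agreed closely, whereas the carcinomas ran from the papilloma level down to below every normal array. It rose by 3.23 (SE 0.53, 9.4-fold, adjusted p = 0.000161) in papilloma. Angpt2, a ligand of the Tie2 receptor of vessels, rose by 1.17 (SE 0.16, adjusted p = 2.23e-05) and was 1.84 above normal in carcinoma. Endothelial markers (8 of 8 measured, Cdh5 on chromosome 8) were at 8.25 to 8.81, 8.56 to 8.92 and 8.71 to 9.23 in normal tissue, papilloma and carcinoma, and their part in the Angpt2 values was not tested.

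Nrg1, a ligand of ERBB receptors, was at 7.00 to 7.21 in normal tissue and 6.38 to 7.05 in papilloma, and at 7.34, 7.80, 8.23, 9.26 and 9.76 in carcinomas. Every carcinoma was above every other array, and carcinoma 4, with the lowest chromosome, had the second highest value. Gas6, a ligand of the TAM receptors, measured 13.34 to 13.46, 12.62 to 12.81 and 10.98 to 12.51 in normal tissue, papilloma and carcinoma and fell by 0.70 (SE 0.21, adjusted p = 0.0161) in papilloma. Hpgd, which inactivates prostaglandins, fell by 1.74 (SE 0.34, adjusted p = 0.000708) in papilloma and was 1.83 lower than normal in carcinoma, from 6.52 in carcinoma 4 to 9.10 in carcinoma 3.

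Of 20 immune genes, 7 fell and 1 rose in papilloma (median -0.16), and the others did not pass the test. In carcinoma against normal 9 were lower and 1 higher (median -0.17, near the -0.16 of all 764 genes), with list medians between -0.32 and -0.19 in every carcinoma. Irf8, a transcription factor of myeloid cells, measured 7.89 to 8.11, 7.03 to 7.30 and 7.29 to 7.71 in normal tissue, papilloma and carcinoma and fell by 0.86 (SE 0.09, adjusted p = 1.33e-06) in papilloma. Cx3cl1, the chemokine fractalkine, fell by 0.52 (SE 0.13, adjusted p = 0.00513). Il15, a cytokine of lymphocytes, was 1.21 lower than normal in carcinoma, and in papilloma it differed by -0.51 (SE 0.21, adjusted p = 0.0712). Cyld, a deubiquitinase that restrains NF-κB, fell by 0.40 (SE 0.13, adjusted p = 0.0222) in papilloma, a call lost without normal array 5 (adjusted p = 0.0509) or papilloma 4 (adjusted p = 0.0545), and was 1.20 lower than normal in carcinoma. Ikbkb, the kinase that activates NF-κB, rose by 0.49 (SE 0.13, adjusted p = 0.00585) in papilloma.

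Macrophage markers (10 of 10 measured, none on chromosome 8) were at 7.80 to 8.06 in normal tissue, 7.79 to 7.90 in papilloma and 7.84, 8.47, 7.89, 8.74 and 7.74 in carcinomas 1 to 5. Cyba, the p22phox subunit of the phagocyte oxidase, measured 8.65 to 8.98 in normal tissue, 8.63 to 9.06 in papilloma and 10.36, 11.48, 10.18, 11.06 and 10.70 in carcinomas. All carcinomas were above all other arrays, and the highest were carcinomas 2 and 4, which also had the highest macrophage marker values, whose part was not tested. Papilloma differed from normal by 0.06 (SE 0.19, adjusted p = 0.854).

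Of the 23 stress, metal and redox genes, 6 rose and 4 fell in papilloma (median 0.05), and 6 were higher and 5 lower in carcinoma against normal (median -0.01). Hmox1, heme oxygenase 1, was at 8.29 to 8.67 in normal tissue, 7.97 to 9.37 in papilloma and 8.81, 10.75, 9.46, 8.71 and 11.38 in carcinomas 1 to 5. Mt3, a metallothionein of the brain, fell by 0.71 (SE 0.19, adjusted p = 0.00881) in papilloma and was 1.31 lower than normal in carcinoma. Ces2g, a carboxylesterase, was dim in normal tissue at 5.07 to 6.18 and was 1.63 higher (SE 0.33) in papilloma, while carcinomas ran from 4.97 to 7.16. It passed the filter at exactly 5 arrays, all of them tumours, so these values are given with no test.

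Transcription and chromatin regulators had 9 of 35 members risen and 6 fallen in papilloma (median 0.06), and 5 higher and 10 lower in carcinoma against normal (median -0.12). Foxc2, a forkhead factor of mesenchyme and vessels, measured 8.82 to 9.00, 7.28 to 7.50 and 7.23 to 7.55 in normal tissue, papilloma and carcinoma and fell 2.84-fold (SE 0.07 on the log2 scale, adjusted p = 4.03e-10) in papilloma. Tumours of both types were at the same low level. Fibroblast and meningeal markers (8 of 8 measured, none on chromosome 8) had means of 10.01 to 10.14, 8.48 to 8.96 and 8.59 to 9.00 in the same order. Lum, Dcn, Slc47a1, Col1a1 and Igf2 were below normal tissue in every tumour. Col3a1 was above it in every tumour (7.59 to 7.77 in normal tissue, 8.09 to 9.81 in tumours), and Pdgfra and Col1a2 overlapped. The part of these markers in the Foxc2 values was not tested. Zfp703, a transcriptional repressor, fell by 1.11 (SE 0.19, adjusted p = 0.000259). Irx3, a homeobox factor, rose by 0.85 (SE 0.13, adjusted p = 8.91e-05), and its carcinoma difference of 0.96 was 0.51 with the mean of its probe sets. Nr3c2, the mineralocorticoid receptor, was at 8.81 to 9.03, 8.47 to 8.98 and 7.51 to 8.24, 0.95 lower than normal in carcinoma (0.55 with the mean of its probe sets), and in papilloma it differed by -0.16 (SE 0.13, adjusted p = 0.396).

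**Figure D5:**
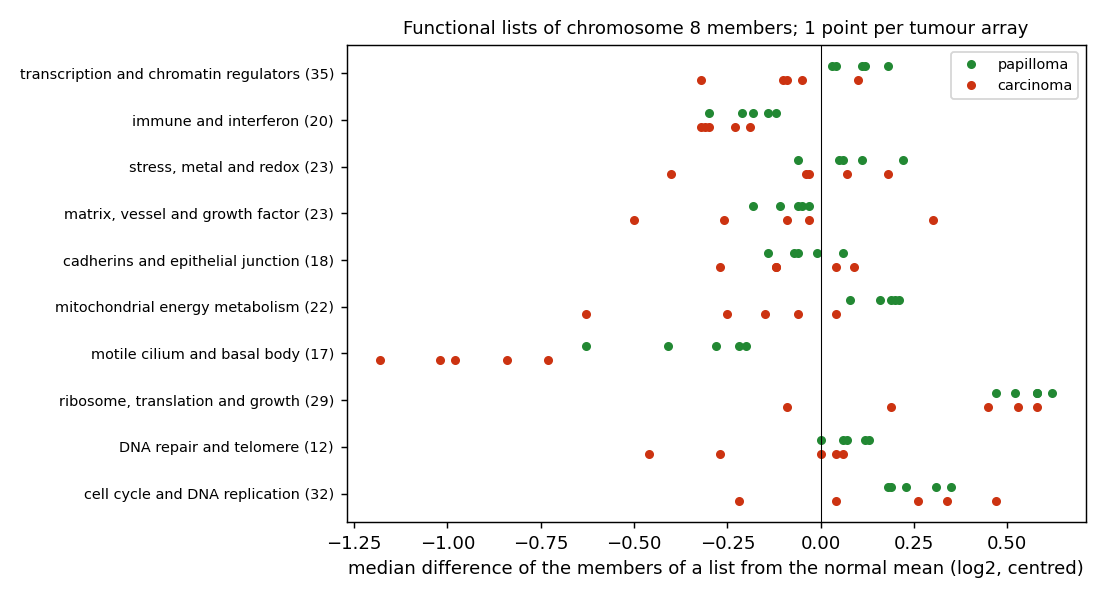
Median log2 difference from the normal mean, centred on all autosomal genes, of the chromosome 8 members of each functional list in each tumour array (green papilloma, red carcinoma; members per list in brackets). Cilium genes lie between -1.18 and -0.20, ribosome and growth genes between 0.47 and 0.62 in papillomas, and in 8 of the 10 lists the lowest carcinoma is carcinoma 4.

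Also outside these lists, the beta-defensin Defb11 measured 12.04 to 12.46 in normal tissue, 9.27 to 10.35 in papilloma and 7.77 to 10.04 in carcinoma. It fell by 2.65 (SE 0.33, adjusted p = 8.88e-06) in papilloma. Its neighbour Defb9 was at 9.57 to 10.10 in normal tissue, at 9.90 to 11.11 in papillomas (difference 0.59, SE 0.52, adjusted p = 0.457), and at 8.64, 7.97, 9.86, 5.86 and 8.95 in carcinomas 1 to 5, so that carcinoma 4 was lowest, carcinoma 3 was within the normal range and all carcinomas were below all papillomas. Beta-defensins are a family of alike small antimicrobial peptides, and probes of 1 member may read another. Dpep1, a membrane dipeptidase, fell by 2.76 (SE 0.20, adjusted p = 3.38e-08) in papilloma and its carcinoma difference was -2.92. Nwd1 fell by 3.11 (SE 0.25, adjusted p = 7.8e-08).

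Wfdc1, a secreted protein with a protease inhibitor domain, and Bst2, the interferon-induced membrane protein tetherin, had their highest levels in papilloma. Wfdc1 measured 7.65 to 8.19 in normal tissue, 9.52 to 10.30 in papilloma and 7.78 to 9.43 in carcinoma, and rose by 1.97 (SE 0.24, adjusted p = 7.12e-06). Bst2 measured 8.92 to 9.85, 9.94 to 11.08 and 7.29 to 9.01, with every papilloma above every other array. Its papilloma difference of 0.89 (adjusted p = 0.0411) lost its call without normal array 1, 3, 4 or 5 or papilloma 3, 4 or 5 (adjusted p 0.0533 to 0.113), and with each autosome's shift removed (adjusted p = 0.073). Lrp2bp, which binds the endocytic receptor megalin, rose by 1.99 (SE 0.23, adjusted p = 4.77e-06). Fam155a, a subunit of the NALCN sodium channel of neurons, was at 7.53, 9.10, 6.96, 7.95 and 8.06 in papillomas, highest in papilloma 2, which had the most neuronal marker signal, and its papilloma difference of 0.85 (adjusted p = 0.0323) was 0.44 without papillomas 2 and 4 (adjusted p = 0.17) and 0.55 without papilloma 2 alone (adjusted p = 0.0594). The call was also lost without normal array 2, 3, 4 or 5 or papilloma 4 or 5 (adjusted p 0.0546 to 0.0692).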

How the data were processed

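Total RNA of 15 snap-frozen mouse tissues was hybridised to single-channel Affymetrix whole-transcript arrays, 5 per group, grouped by the sample titles. The authors deposited log2 values per probe set, made with RMA in Affymetrix Expression Console per the submitters' processing notes, with no version and no annotation build given in the sources used here. RMA corrects background, gives all arrays 1 intensity distribution and summarises probes, which compresses dim differences.

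Of 41345 probe sets, 23521 had 1 gene symbol, 1814 several and 16010 none. The RefSeq gene table (GRCm38.p6) matched 23328 and gave chromosome and gene order. The set with the highest mean stood for a gene. Trp53 was not analysed here.

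All 22180 genes of all 15 arrays were fitted together with limma 3.58.1 in R 4.3.3 (group as the only term, eBayes, 12 residual and 3.35 prior degrees of freedom, two-sided, Benjamini-Hochberg, threshold 0.05). The procedure was tested on simulated data. Differences are log2 with their standard error (SE), and folds are 2 raised to their size. Per array, differences from the normal mean (for a normal array, from the other 4) were centred on the autosomal median. The number of arrays limits the precision.

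The chromosome, the lists and the genes named were chosen with earlier results of these data known. The rule named the 8 lowest and 8 highest genes in carcinoma against normal, the 6 lowest and 6 highest in papilloma against normal that passed the threshold, and the 4 lowest and 4 highest in carcinoma against papilloma, all without overlap between groups, and up to 5 per list. Alternatives were a replicate block, other moderation, array weights, fewer groups, other normalization, centring, filters, probe summaries and window sizes, and leaving out arrays. The title numbers did not pair the arrays: over 15 pairs of equal number, the correlation of deviations from the group means ran from -0.12 to 0.15 and was over 0.1 in 2.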

Additional observations from a re-analysis of the deposited data

Results flagged for a closer look

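Of 174 sets of 5 values (each named gene and the chromosome median, by group), 10 had an array set far apart from the other 4 by Dixon's criterion, where chance gives about 1 in 20. In normal tissue, array 5 was low for Hpgd (9.20, others 9.71 to 9.85) and high for Neil3 (6.62, others 6.25 to 6.34) and Slc7a6 (10.38, others 10.13 to 10.16), and array 4 was high for Hydin (9.69, others 9.16 to 9.23). In papilloma, array 5 was high for Bst2 (11.08, others 9.94 to 10.21) and Ckap2 (8.59, others 7.90 to 8.09), array 3 was high for Dynlrb2 (6.83, others 6.57 to 6.64), and array 4 was low for Zfp703 (7.53, others 8.20 to 8.26). In carcinoma, array 5 was high for Atmin (10.47, others 9.88 to 9.98) and array 3 for Dynlrb2 (7.32, others 6.56 to 6.66). The Atmin value of carcinoma 5 was the one nearest to normal tissue, as was the chromosome median of that array. These are log2 values, and no explanation for them was tested.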

How the results depend on the processing

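The carcinoma median of -0.16 stayed below 0 under all alternatives run, from -0.25 to -0.09, and from -0.21 to -0.10 when single arrays were left out. The share of windows below 0 over the carcinomas, 81.3%, was 77.6% to 86%. The papilloma median of 0.02 was -0.01 over genes in none of the lists and otherwise 0.01 to 0.03. Genes called between carcinoma and papilloma, 202, became 105 with only the groups compared and 130 without papillomas 2 and 4, and ranged from 151 to 270 when single arrays were left out. The 377 genes called between carcinoma and normal were 354 to 435 (341 to 402 without single arrays), and the 322 between papilloma and normal 279 to 419 (290 to 305 without single arrays). Removing each autosome's shift left 417, 349 and 143 genes called in carcinoma against normal, papilloma against normal and carcinoma against papilloma. With a replicate block, although the numbers did not pair the arrays, the counts were 378, 318 and 203, and the own number correlated best in 5 of the 15 pairs. The block ended the papilloma call of Bst2 (adjusted p = 0.0841) and no other call of a named gene. Of 171 named differences 10 changed sign under some alternative, all of size 0.16 or less, among them carcinoma minus papilloma of Hydin (-0.12 to 0.06) and Foxc2 (-0.03 to 0.15) with each autosome's shift removed. Il15, Nrg1, Palld and Prkaca, not called in papilloma, passed the test under 1 to 5 alternatives each. Where a call or a count moved, the cause was not tested. Arrays limit dim genes most.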
